A study of Mus musculus with 8 samples.

Results

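The genes of epithelial adhesion followed here are 37 mouse genes that build or control cell junctions and the simple epithelium. They were listed by symbol and role, with earlier results of these data known, and mapped to the Ensembl identifiers of a table of 55487 genes. That choice limits what their share of called genes, set beside that of all genes, can show. By role they were 3 genes of cell adhesion (Cdh1, Cdh3 and Epcam), 7 of the desmosome, 4 of keratins, 7 of the tight junction, 6 epithelial transcription factors, 2 epithelial splicing factors, 4 surface proteases or their inhibitors, and 4 genes of sorting and transport. All 37 were in the table, and 27 had enough reads to be tested.

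Epithelial cells hold together through adherens junctions, in which E-cadherin (Cdh1) links neighbouring cells, through desmosomes, which anchor keratin filaments, and through tight junctions, in which claudins seal the space between cells. Keratin filaments are built from pairs of a type II and a type I keratin, in simple epithelia classically Krt8 with Krt18. Fibroblasts largely lack this programme, and its gain, the mesenchymal-to-epithelial transition, is a known early step of reprogramming to pluripotency.

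RNA of mouse embryonic fibroblasts (MEFs) was sequenced in 8 bulk libraries. The MEFs were C57BL/6 and heterozygous for Rosa26-rtTA and for Tet-O-OSKM, a doxycycline-inducible cassette of Oct4 (Pou5f1), Sox2, Klf4 and Myc. MEF 61.5 and MEF 61.3, from separate embryos, were each kept for 72 h in doxycycline together with 1 of 4 treatments. These were 100 µM S-adenosylmethionine (SAM, the methyl donor of most methyltransferases), 10 µM NSC636819 (NSC, which blocks KDM4A and KDM4B, enzymes that take methyl groups off histone H3), 2 µM vitamin B12 with 2 µM PF-9366 (B12 + MAT2Ai, an inhibitor of MAT2A, the enzyme that makes SAM), and 2 µM B12 alone. Each treatment had n = 2 embryos. The SAM and NSC cultures had no added B12, so SAM against B12 compares one compound with the other. Doxycycline alone was not analysed here, so no direction is relative to it. A gene said to rise with SAM was higher than with B12. In bulk RNA, more cells of an epithelial kind and more RNA per cell cannot be told apart.

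Libraries held 27498180 to 38565685 counted reads, and 19392 genes were tested. Fibroblast markers were high in all 8 libraries, with Col1a1 at 24379 to 34311 CPM (counts scaled to the size of the library) and Thy1 at 126 to 172 CPM. Of the library size after TMM scaling, the 37 epithelial genes together took 0.0316% and 0.0201% with SAM in MEF 61.5 and MEF 61.3. With B12 they took 0.0194% and 0.0122%.

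With SAM against B12, 5 of 7 desmosome genes were higher, while the adhesion genes and the tight junction genes had 1 called of 3 tested each. Of the 27 tested epithelial genes 14 were higher and 0 lower (edgeR quasi-likelihood test with MEF as a block, adjusted p below 0.05), where 2.78% of all tested genes were higher and 4.93% lower (7.71% in either direction). The 14 were Cdh1, the desmosome genes Dsp, Pkp1, Dsc2, Perp and Jup, the keratin genes Krt8 and Krt19, the claudin gene Cldn3, the transcription factor genes Ehf and Elf3, the protease inhibitor gene Spint1, and Mal and Aqp3. The median log2 fold change over the 27 genes was 1.14 (1.12 within MEF 61.5 and 0.85 within MEF 61.3), against -0.0024 over all genes tested. Without the block for MEF, a fit that puts the difference between the embryos into the error, 0 of 27 genes passed. The DESeq2 test with the block called 12 higher and 0 lower. For these alternative fits the shares over all genes are not given.

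**Figure D1:**
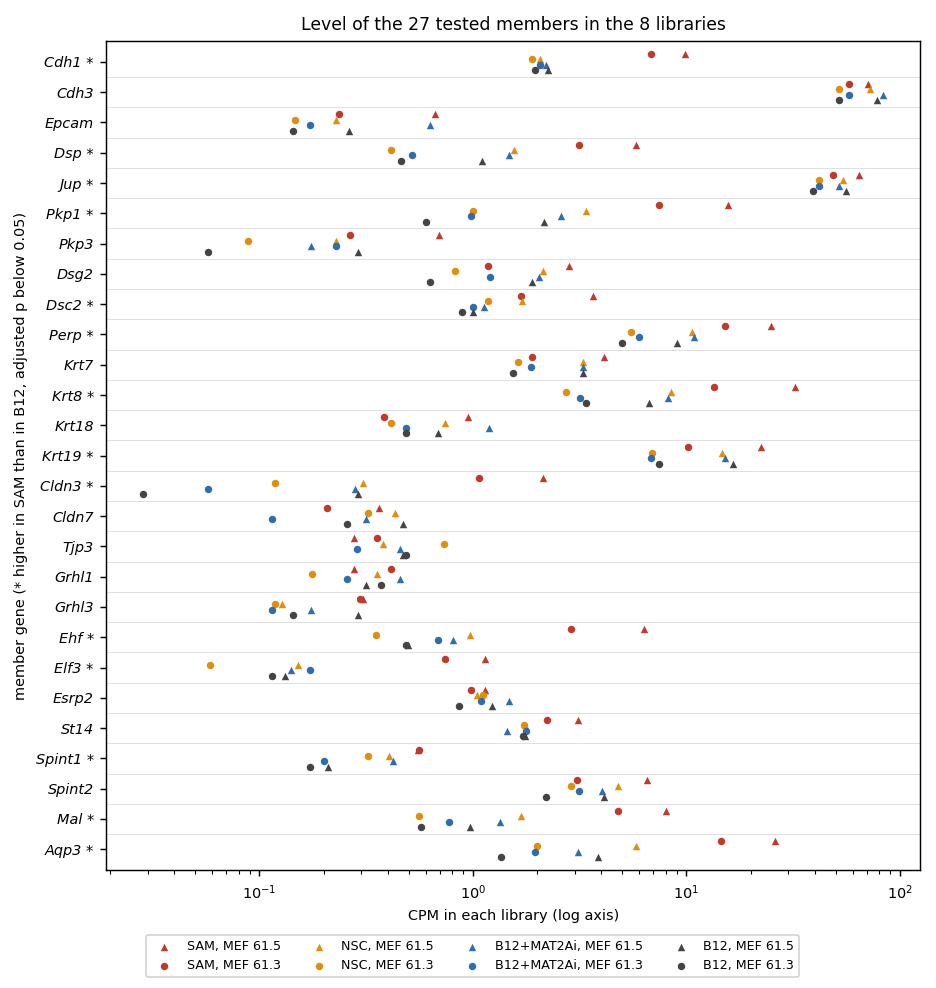
Level of the 27 tested epithelial genes in each of the 8 libraries, in CPM on a log axis, by treatment (colour) and MEF (triangle, 61.5; circle, 61.3). Genes with an asterisk were higher with SAM than with B12; for Cdh1, Dsp, Pkp1, Perp, Krt8, Cldn3, Ehf, Elf3, Spint1, Mal and Aqp3 both SAM libraries lie to the right of the other 6.

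Among the adhesion genes, E-cadherin rose and its neighbour P-cadherin did not pass the test. Cdh1 had 9.81 and 6.85 CPM with SAM (MEF 61.5 and MEF 61.3), 2.06 and 1.88 CPM with NSC, 2.21 and 2.07 CPM with B12 + MAT2Ai, and 2.26 and 1.95 CPM with B12. Both SAM libraries lay above the other 6, which spanned 1.88 to 2.26 CPM in both embryos and under every other treatment. The log2 fold change of SAM over B12 was 1.98 ± 0.15 (SE; 3.94-fold, edgeR adjusted p = 1.20e-05). Cdh3, which encodes P-cadherin and lies 46.1 kb from Cdh1 on chromosome 8, had 71.1 and 57.6 CPM with SAM (MEF 61.5 and MEF 61.3), 72.1 and 52.0 CPM with NSC, 83.6 and 57.5 CPM with B12 + MAT2Ai, and 77.8 and 51.6 CPM with B12. It was the most abundant of the 37 genes in CPM in every library, its groups overlapped, and the 95% interval of its log2 fold change was -0.15 to 0.18 around 0.01. Cdh3 alone gave 22.5% and 28.7% of the summed CPM of the 37 genes with SAM (MEF 61.5 and MEF 61.3), against 40.2% and 42.2% with B12.

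Epcam, a surface adhesion molecule of simple epithelia, was near the limit of detection. It had 24 and 8 reads with SAM in MEF 61.5 and MEF 61.3, 9 and 5 with NSC, 18 and 6 with B12 + MAT2Ai, and 10 and 5 with B12. The SAM and B12 groups overlapped, and the log2 fold change of 1.14 ± 0.43 did not pass the test (edgeR adjusted p = 0.158, 95% interval 0.20 to 2.08).

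By count the desmosome had the most genes called, 5 of 7, while sorting and transport had 2 called of 2 tested. Dsp, which encodes desmoplakin, the link from the desmosome to keratin, had 5.78 and 3.13 CPM with SAM (MEF 61.5 and MEF 61.3), 1.55 and 0.412 CPM with NSC, 1.47 and 0.516 CPM with B12 + MAT2Ai, and 1.10 and 0.458 CPM with B12. Pkp1, which encodes the plaque protein plakophilin 1, had 15.6 and 7.47 CPM with SAM (MEF 61.5 and MEF 61.3), 3.38 and 1.00 CPM with NSC, 2.59 and 0.9754 CPM with B12 + MAT2Ai, and 2.15 and 0.602 CPM with B12. For both genes the SAM libraries lay above the other 6, although each gene was also higher in MEF 61.5 than in MEF 61.3 under all 4 treatments. The log2 fold change was 2.54 ± 0.23 for Dsp (5.81-fold, edgeR adjusted p = 4.19e-05) and 3.11 ± 0.18 for Pkp1 (8.63-fold, 4.19e-06).

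Perp, a membrane protein of desmosomes, had 25.0 and 15.1 CPM with SAM (MEF 61.5 and MEF 61.3), 10.7 and 5.50 CPM with NSC, 10.8 and 5.97 CPM with B12 + MAT2Ai, and 9.01 and 5.01 CPM with B12. It rose by a log2 fold change of 1.53 ± 0.09 (2.88-fold, edgeR adjusted p = 4.19e-06). Dsc2, which encodes the desmosomal cadherin desmocollin 2, had 3.67 and 1.68 CPM with SAM (MEF 61.5 and MEF 61.3), 1.70 and 1.18 CPM with NSC, 1.12 and 1.00 CPM with B12 + MAT2Ai, and 0.998 and 0.888 CPM with B12. Its SAM libraries lay above both B12 libraries but overlapped NSC, since the SAM library of MEF 61.3 (1.68 CPM) was level with the NSC library of MEF 61.5 (1.70 CPM). The fold change of Dsc2 was 1.48 ± 0.25 on the log2 scale (edgeR adjusted p = 0.00332), and without the SAM library of MEF 61.5 it was no longer called.

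Jup, which encodes plakoglobin, a protein of desmosomes and adherens junctions alike, had 64.4 and 48.6 CPM with SAM (MEF 61.5 and MEF 61.3), 54.1 and 42.0 CPM with NSC, 51.8 and 41.9 CPM with B12 + MAT2Ai, and 55.6 and 39.3 CPM with B12. Its groups overlapped and its change was the smallest of the 14, 0.26 ± 0.07 on the log2 scale (1.20-fold, edgeR adjusted p = 0.0354). The call was lost in 10 of 15 alternative settings, among them 7 of the 8 fits that leave out 1 library. The other desmosome genes were not called. Dsg2, which encodes desmoglein 2, gave a log2 value of 0.67 ± 0.22 (adjusted p = 0.11), and Pkp3, which encodes plakophilin 3, gave 1.44 ± 0.50 (0.128) on 2 to 25 reads a library.

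Of the keratin pair of simple epithelia, Krt8 was called and Krt18 was not. Krt8, the type II keratin, had 32.3 and 13.4 CPM with SAM (MEF 61.5 and MEF 61.3), 8.51 and 2.74 CPM with NSC, 8.17 and 3.18 CPM with B12 + MAT2Ai, and 6.67 and 3.38 CPM with B12. The SAM libraries lay above the other 6, and the log2 fold change was 2.17 ± 0.12 (4.49-fold, edgeR adjusted p = 4.19e-06). Krt18, its type I partner, lies 23.7 kb from Krt8 on chromosome 15 and had 0.945 and 0.384 CPM with SAM (MEF 61.5 and MEF 61.3), 0.737 and 0.412 CPM with NSC, 1.19 and 0.488 CPM with B12 + MAT2Ai, and 0.683 and 0.487 CPM with B12. Its groups overlapped, with 34 and 13 reads with SAM against 26 and 17 with B12, and the log2 value was 0.17 ± 0.31 (edgeR adjusted p = 0.836, 95% interval -0.52 to 0.86). Per length of exon, Krt8 stood at 25.1 and 25.6 times Krt18 with SAM in MEF 61.5 and MEF 61.3, against 7.17 and 5.09 times with B12. Both keratins have processed pseudogenes, and how the authors' counting treated reads that match several places is not stated, so their levels are uncertain to that extent.

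Promoters of this pair are shown because the genes are neighbours and Krt8 was called while Krt18 was not, a difference between genes that was not tested. The sequences run 5′ to 3′ along each gene's strand, from 250 bases before to 50 bases after the RefSeq start (GRCm38.p6), and capitals mark the E-box letters CACCTG or their reverse complement CAGGTG.
Krt8, chr15:102004293-102004592, minus strand: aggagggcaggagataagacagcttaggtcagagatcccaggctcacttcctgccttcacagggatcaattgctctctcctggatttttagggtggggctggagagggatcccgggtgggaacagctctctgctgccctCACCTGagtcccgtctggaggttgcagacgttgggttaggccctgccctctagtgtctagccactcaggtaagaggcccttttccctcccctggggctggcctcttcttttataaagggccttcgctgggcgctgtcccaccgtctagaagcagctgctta
Krt18, chr15:102027966-102028265, plus strand: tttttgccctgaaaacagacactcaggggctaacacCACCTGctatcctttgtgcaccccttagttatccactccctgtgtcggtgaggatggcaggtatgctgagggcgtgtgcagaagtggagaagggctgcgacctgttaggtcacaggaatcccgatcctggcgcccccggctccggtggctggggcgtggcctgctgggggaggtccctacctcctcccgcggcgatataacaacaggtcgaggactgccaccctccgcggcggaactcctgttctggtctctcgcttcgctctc
Each held 1 match, which starts 111 bases before the start of Krt8 and 214 bases before that of Krt18.

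Of the other keratins, Krt19, a type I keratin of simple and ductal epithelia, had 22.3 and 10.1 CPM with SAM (MEF 61.5 and MEF 61.3), 14.6 and 6.92 CPM with NSC, 15.1 and 6.86 CPM with B12 + MAT2Ai, and 16.5 and 7.42 CPM with B12. The treatments overlapped because MEF 61.5 stood above MEF 61.3 throughout, yet within each embryo SAM was highest, and the log2 fold change of 0.44 ± 0.08 was called (1.36-fold, edgeR adjusted p = 0.00521), though not without the SAM library of MEF 61.5. Krt7, a type II keratin of glandular epithelia, was not called at 0.31 ± 0.16 (adjusted p = 0.311).

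The tight junction set was thin. Only Cldn3, Cldn7 and Tjp3 of its 7 genes could be tested, and Cldn3 was the 1 called. Cldn3, which encodes a sealing claudin, had 77 and 36 reads with SAM in MEF 61.5 and MEF 61.3, 12 and 4 with NSC, 8 and 2 with B12 + MAT2Ai, and 11 and 1 with B12. The SAM libraries did not overlap the other 6, and its log2 fold change, 3.32 ± 0.39 (9.97-fold, edgeR adjusted p = 0.000227), was the largest of the 27, though it ranged from 2.93 to 4.95 over the alternative settings, on few reads. Cldn4, which lies 39.3 kb from Cldn3 on chromosome 5 and encodes a related claudin, had 4 and 2 reads with SAM, 0 and 0 with NSC, 2 and 0 with B12 + MAT2Ai, and 1 and 1 with B12. A change of Cldn4 was not detectable at this depth. Cldn7, at a log2 value of -0.36 ± 0.40, and Tjp3, which encodes the scaffold ZO-3, at -0.60 ± 0.43, were not called (adjusted p = 0.697 and 0.493), and Cldn6, Ocln (occludin) and Marveld3 had 0 to 5 reads a library. Promoters of the neighbouring claudin genes are shown in the same way.
Cldn3, chr5:134985964-134986263, plus strand: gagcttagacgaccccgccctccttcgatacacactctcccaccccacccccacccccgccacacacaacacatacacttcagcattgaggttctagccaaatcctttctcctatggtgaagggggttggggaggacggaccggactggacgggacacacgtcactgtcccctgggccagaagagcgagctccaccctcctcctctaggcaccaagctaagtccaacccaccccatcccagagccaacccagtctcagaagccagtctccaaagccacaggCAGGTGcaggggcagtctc
Cldn4, chr5:134946885-134947184, minus strand: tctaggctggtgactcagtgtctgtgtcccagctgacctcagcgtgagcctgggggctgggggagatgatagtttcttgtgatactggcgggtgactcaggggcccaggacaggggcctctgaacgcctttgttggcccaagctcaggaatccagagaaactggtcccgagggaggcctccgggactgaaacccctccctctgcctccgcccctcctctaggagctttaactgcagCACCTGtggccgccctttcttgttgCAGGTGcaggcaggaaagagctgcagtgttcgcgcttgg
Cldn3 had 1 match, 31 bases after the start, and Cldn4 had 2, 14 bases before and 11 bases after it.

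Among the transcription factors, the ETS factor genes Ehf and Elf3 rose, and the 2 tested grainyhead genes, Grhl1 and Grhl3, did not pass. Ehf had 6.34 and 2.86 CPM with SAM (MEF 61.5 and MEF 61.3), 0.965 and 0.353 CPM with NSC, 0.806 and 0.689 CPM with B12 + MAT2Ai, and 0.499 and 0.487 CPM with B12. Elf3 had 41 and 25 reads with SAM in MEF 61.5 and MEF 61.3, 6 and 2 with NSC, 4 and 6 with B12 + MAT2Ai, and 5 and 4 with B12. For each, both SAM libraries lay above the other 6, but Elf3 had enough reads to be tested only through its SAM libraries. The log2 fold change was 3.20 ± 0.28 for Ehf (9.17-fold, edgeR adjusted p = 2.95e-05) and 2.90 ± 0.40 for Elf3 (7.47-fold, 0.000806).

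The grainyhead factors activate epithelial junction genes, Cdh1 and claudin genes among them. Grhl2 had 6 and 2 reads with SAM in MEF 61.5 and MEF 61.3, 1 and 0 with NSC, 3 and 0 with B12 + MAT2Ai, and 0 and 0 with B12. A count of 0 allows up to 3 reads, or 0.0788 and 0.0859 CPM in the B12 libraries, so no fold is given. Grhl1 gave a log2 value of 0.01 ± 0.45 and Grhl3 of 0.46 ± 0.44, neither called (edgeR adjusted p = 0.997 and 0.652). Ovol1, a repressor of mesenchymal genes in epithelia, had 0 to 6 reads a library and was not tested.

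The Esrp splicing factors set epithelial isoforms of many genes. Esrp1 had too few reads to be tested, with 5 and 0 reads with SAM in MEF 61.5 and MEF 61.3, 1 and 0 with NSC, 1 and 0 with B12 + MAT2Ai, and 0 and 0 with B12. Esrp2 was not called, with 30 to 47 reads in each library and a log2 value of 0.01 ± 0.24 (edgeR adjusted p = 0.989, 95% interval -0.52 to 0.55).

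Of the surface proteases and their inhibitors, 1 of 3 tested genes was called. Spint1, an inhibitor of the membrane protease matriptase, had 20 and 19 reads with SAM in MEF 61.5 and MEF 61.3, 16 and 11 with NSC, 12 and 7 with B12 + MAT2Ai, and 8 and 6 with B12. The log2 fold change of 1.53 ± 0.41 passed narrowly (edgeR adjusted p = 0.044), and the call was lost in 11 of 14 alternative settings, among them all 8 fits that leave out 1 library. St14, which encodes matriptase, gave 0.62 ± 0.20 (adjusted p = 0.102) and Spint2, a second inhibitor, gave 0.59 ± 0.17 (0.0581). Prss8 (prostasin) had 0 to 7 reads a library.

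Sorting and transport held 2 genes of large change and 2 that could not be tested. Mal, which encodes a proteolipid of apical membrane sorting, had 8.01 and 4.78 CPM with SAM (MEF 61.5 and MEF 61.3), 1.68 and 0.559 CPM with NSC, 1.33 and 0.775 CPM with B12 + MAT2Ai, and 0.972 and 0.573 CPM with B12. Aqp3, a water and glycerol channel of the basolateral membrane, had 26.05 and 14.6 CPM with SAM (MEF 61.5 and MEF 61.3), 5.82 and 2.00 CPM with NSC, 3.12 and 1.95 CPM with B12 + MAT2Ai, and 3.83 and 1.35 CPM with B12. For both, the SAM libraries lay above the other 6, and the log2 fold change was 3.05 ± 0.21 for Mal (8.31-fold, edgeR adjusted p = 7.86e-06) and 3.01 ± 0.17 for Aqp3 (8.05-fold, 4.19e-06). Rab25, a recycling GTPase, and Ap1m2, a sorting adaptor, had 1 to 7 reads a library.

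**Figure D2:**
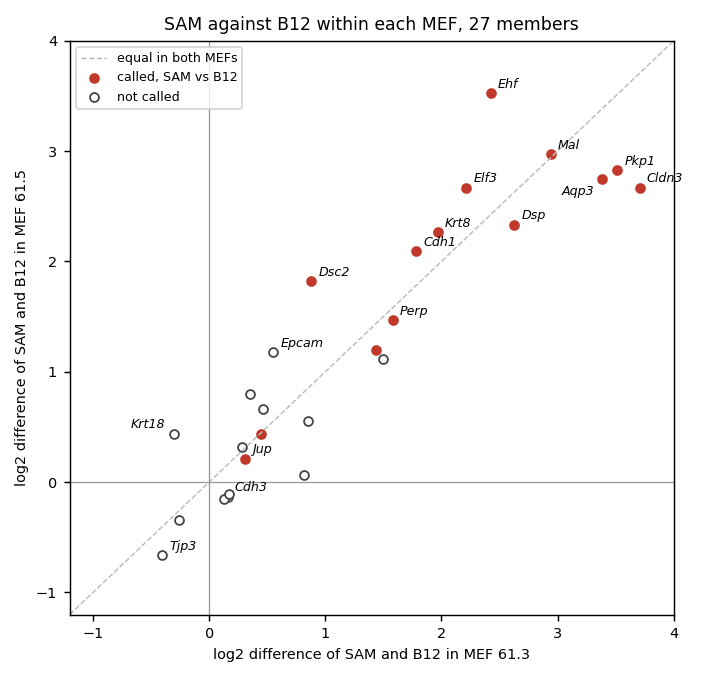
Log2 difference of SAM and B12 for the 27 tested epithelial genes within MEF 61.3 (horizontal) and within MEF 61.5 (vertical), each from 1 library a treatment. All 14 called genes (filled) were above 0 in both embryos, Krt18 was above 0 in MEF 61.5 and below 0 in MEF 61.3, and Tjp3 was below 0 in both.

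The difference between SAM and B12 was seen in each embryo. In the fit over all libraries, 25 of the 27 values were above 0, where 9595 of all 19392 were. Within both MEFs, 21 were higher with SAM than with B12 and 2 lower (Cldn7 and Tjp3). The share over all genes is not given for that count. Both SAM libraries lay above both B12 libraries for 14 genes and below for 1, where 17.9% of all genes were above and 18.2% below. Both SAM libraries lay above all 6 others for 13 of 27, where 6.38% of all genes did, and below all 6 for 0, where 6.28% did. The 13 were the called genes Cdh1, Dsp, Pkp1, Perp, Krt8, Cldn3, Ehf, Elf3, Spint1, Mal and Aqp3, and the uncalled Grhl3 and St14. Of these, Elf3 and Grhl3 had enough reads to be tested only through their SAM libraries. For them, and for Elf3 among the 14 called, a high level with SAM was partly a condition of being tested.

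Per length of exon (RPKM, CPM divided by kilobases of exon), the order of levels differed with SAM. In MEF 61.5 with SAM, Krt8 (16.5 RPKM), Cdh3 (16.2), Aqp3 (14.2), Perp (12.8), Krt19 (12.02) and Jup (10.0) led. In MEF 61.5 with B12, Cdh3 led at 17.7 RPKM, followed by Krt19 (8.88), Jup (8.64), Perp (4.62), Krt8 (3.41) and Aqp3 (2.10). In MEF 61.3 Cdh3 led with SAM (13.1 RPKM), ahead of Aqp3 (7.96), Perp (7.73), Jup (7.55), Krt8 (6.85) and Krt19 (5.46), and from Aqp3 to Krt19 neighbours in this order differed by less than the embryos did for each of these 5 genes. Cdh1 reached 2.15 and 1.498 RPKM with SAM (MEF 61.5 and MEF 61.3), against 0.494 and 0.426 RPKM with B12.

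NSC against B12 called 0 of the 27 epithelial genes, where 0.284% of all tested genes were higher and 1.62% lower (1.91% in either direction). With edgeR, 2 of the 27 had an unadjusted p below 0.05, where 2412 of all 19392 tested genes did. The DESeq2 test called 0. Those 2 were Pkp1 (0.67 ± 0.23, edgeR adjusted p = 0.226) and Aqp3 (0.59 ± 0.21, 0.245), and both passed where genes with few reads were not filtered. The median log2 fold change was 0.04, against -0.0017 over all genes. For Cdh1 the 95% interval was -0.49 to 0.30, for Krt8 -0.19 to 0.43 and for Perp -0.02 to 0.42, so a doubling was outside the intervals of these genes. The interval stayed within 1 log2 unit on both sides for 14 of 27 genes, and was wide for genes with few reads such as Cldn3 (-0.88 to 1.67).

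B12 + MAT2Ai against B12 called 0 of the 27, where 0.0722% of all tested genes were higher and 0.0155% lower (0.0877% in either direction). With edgeR 1 of the 27, Perp (0.26 ± 0.10, adjusted p = 0.583), had an unadjusted p below 0.05, where 1575 of all 19392 tested genes did. The DESeq2 test called 0. The median log2 fold change was 0.20, against -3.2e-05 over all genes, and 21 of 27 values were above 0, where 9693 of all 19392 were. Cdh1 had an interval of -0.37 to 0.43, Krt8 of -0.17 to 0.47 and Aqp3 of -0.50 to 0.52. Epcam had a log2 value of 0.94 ± 0.45 (adjusted p = 0.64), which rests on 18 against 10 reads in MEF 61.5 and 6 against 5 in MEF 61.3.

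**Figure D3:**
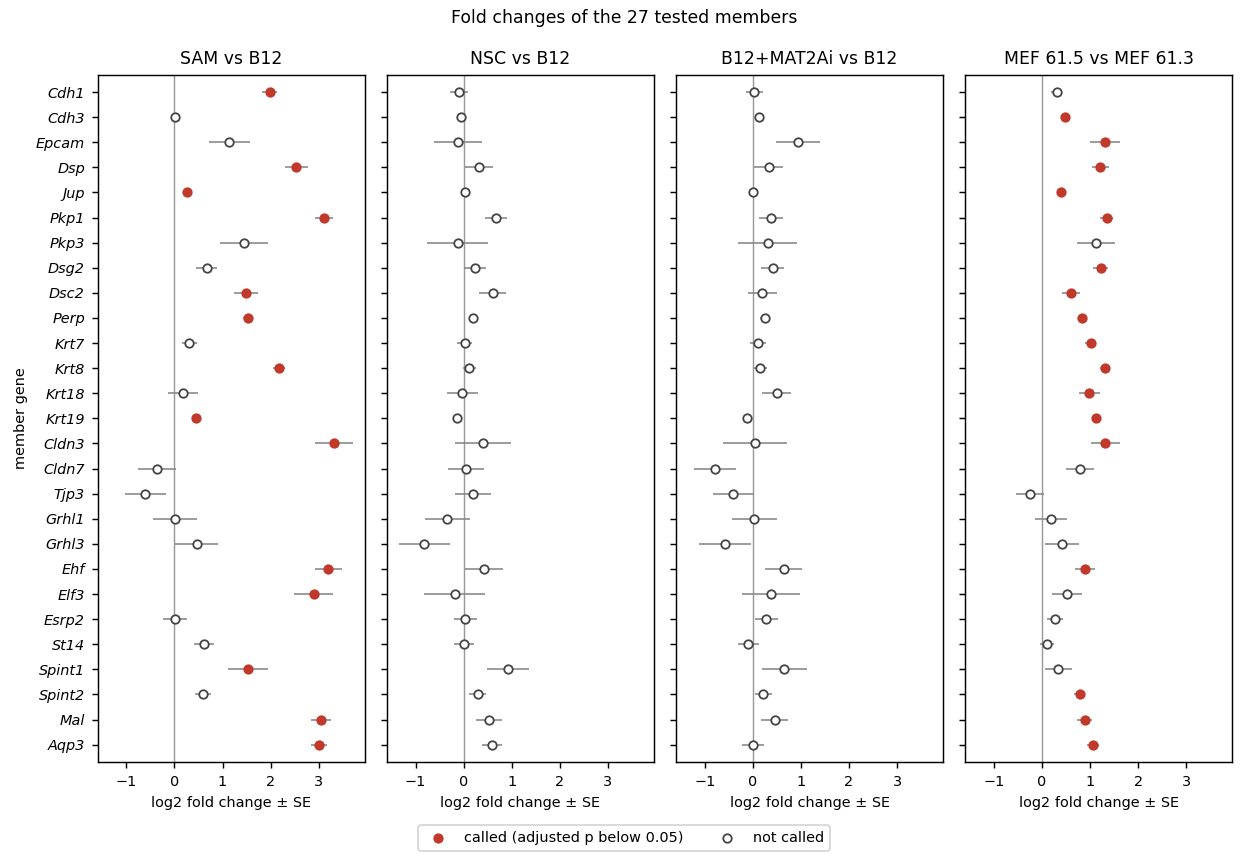
Log2 fold change with its standard error for the 27 tested epithelial genes in SAM vs B12, NSC vs B12, B12 + MAT2Ai vs B12 and MEF 61.5 vs MEF 61.3; filled points were called. The 14 called genes of SAM vs B12 and the 17 of MEF 61.5 vs MEF 61.3 all lie right of 0, and the middle panels have 0 called.

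The differences between SAM and the other compounds were tested directly. SAM against NSC called 13 of 27 higher and 0 lower, where 4.42% of all genes were higher and 5.1% lower (9.52% in either direction). SAM against B12 + MAT2Ai called 13 higher and 0 lower, where 3.36% were higher and 4.81% lower (8.17% in either direction). Both SAM libraries lay above both NSC libraries for 15 genes and below for 1 (20.2% and 20% of all genes), and above both B12 + MAT2Ai libraries for 15 and below for 0 (19.7% and 20.1%). The 13 were in both cases the genes called in SAM against B12 other than Spint1; the 3 comparisons share the SAM libraries. Without the block for MEF 0 of 27 passed in either. Against NSC, Jup passed narrowly (0.23 ± 0.07, edgeR adjusted p = 0.04975) and Dsc2 gave 0.88 ± 0.23 (0.0393). Both lost that call with the DESeq2 test, among other settings. Cdh1 was higher with SAM than with NSC by 2.08 ± 0.15 and than with B12 + MAT2Ai by 1.95 ± 0.15 on the log2 scale (edgeR adjusted p = 2.25e-05 and 2.86e-05). Krt8 was higher by 2.05 ± 0.12 and 2.02 ± 0.12, and Aqp3 by 2.42 ± 0.16 and 2.998 ± 0.18. Spint1, at 0.61 ± 0.35 against NSC (adjusted p = 0.321) and 0.87 ± 0.38 against B12 + MAT2Ai (0.222), did not pass.

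The epithelial genes also differed between the embryos. In each of the 4 treatments 20 of 27 were higher in MEF 61.5 than in MEF 61.3, where 19.1% of all genes were. MEF 61.5 against MEF 61.3, in the same fit over all 4 treatments, called 17 of 27 genes higher and 0 lower, where 8.41% of all genes were higher and 10.3% lower (18.8% in either direction). Each MEF is 1 embryo, so this compares 2 embryos. The median log2 fold change was 0.83, and 26 of 27 values were above 0 (all but Tjp3), where 9939 of all 19392 were. Called genes included all 4 keratins, with Krt8 at 1.30 ± 0.09, Krt19 at 1.13 ± 0.06, Krt7 at 1.01 ± 0.11 and Krt18 at 0.98 ± 0.22 (edgeR adjusted p = 3.82e-06, 6.29e-07, 0.000108 and 0.0105), and 6 of 7 desmosome genes, led by Pkp1 (1.34 ± 0.14, 4.81e-05). The call between embryos was lost in 5 of 12 alternative settings for Krt18, 4 of 11 for Epcam, 7 of 13 for Dsc2 and 3 of 13 for Ehf. The other called genes kept theirs in every setting.

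The genes called between embryos and with SAM overlapped in part, and a difference between the genes was not tested. Of the 17, 11 were also called in SAM against B12, and 6 were not, namely Cdh3 (0.48 ± 0.05), Epcam (1.31 ± 0.32), Dsg2 (1.22 ± 0.16), Krt7, Krt18 and Spint2 (0.78 ± 0.12). The share of all genes called in both comparisons is not given, so whether 11 of 17 is many cannot be told. Cdh1 (0.30 ± 0.11, edgeR adjusted p = 0.0891), Elf3 (0.51 ± 0.31, 0.289) and Spint1 (0.34 ± 0.28, 0.469) were called in SAM against B12 and not between the embryos. Yet the 95% intervals of SAM against B12 lay above 0 for Epcam (0.20 to 2.08), Dsg2 (0.18 to 1.16) and Spint2 (0.22 to 0.96). Those of Cdh3, Krt7 and Krt18 held 0. Between embryos the interval of Cdh1 was 0.05 to 0.55, and those of Elf3 and Spint1 held 0. All 4 libraries of MEF 61.5 lay above all 4 of MEF 61.3 for 7 genes (Cdh3, Jup, Dsg2, Krt7, Krt18, Krt19 and Spint2), where 6.24% of all genes did, and below for 0, where 5.33% did.

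Other gene lists moved with the epithelial genes. The 4 factors of the cassette were all higher with SAM than with B12. Pou5f1 had 20.7 and 10.2 CPM with SAM (MEF 61.5 and MEF 61.3), 8.61 and 3.41 CPM with NSC, 6.45 and 3.96 CPM with B12 + MAT2Ai, and 8.09 and 4.13 CPM with B12, and rose by 1.33 ± 0.12 on the log2 scale (edgeR adjusted p = 4.24e-05). Sox2 rose by 1.24 ± 0.13, Myc by 0.54 ± 0.08 and Klf4 by 0.35 ± 0.06. Pou5f1, Sox2 and Myc were also higher in MEF 61.5 than in MEF 61.3 (1.02, 0.79 and 0.55), and Klf4 was not called there. Counts per gene cannot separate the cassette's reads from those of the endogenous genes. The part of cassette level in the epithelial difference was not tested.

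Macrophage markers went the other way. Of 16, 15 were lower with SAM than with B12 (median -1.42), and 15 were lower in MEF 61.5 than in MEF 61.3 (median -1.08). The summed level of the 16 was 561 and 1731 CPM with SAM (MEF 61.5 and MEF 61.3), 2021 and 3963 CPM with NSC, 2166 and 4444 CPM with B12 + MAT2Ai, and 2784 and 5012 CPM with B12. All 16 were above 0 in all 8 libraries, the defining markers Csf1r and Adgre1 included, with Csf1r at 22.6 and 81.0 CPM with SAM against 87.8 and 172.8 CPM with B12. Their part in the epithelial difference was not tested.

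Markers of stratified keratinocytes rose with SAM in 8 of the 12 tested and were lower in 0. The largest changes were those of Krt17 (3.98 ± 0.38) and Krt6a (3.85 ± 0.37), keratins of activated keratinocytes. Krt14, the basal type I keratin, had 91.4 and 41.3 CPM with SAM (MEF 61.5 and MEF 61.3), 39.04 and 12.2 CPM with NSC, 35.3 and 10.9 CPM with B12 + MAT2Ai, and 34.2 and 12.7 CPM with B12, and Krt5, its type II partner, 0.0286 to 0.528 CPM over the 8 libraries. Of 41 tested further epithelial genes outside the set, 8 were higher and 1 was lower. Itgb4, the integrin of hemidesmosomes, had 116 and 65.7 CPM with SAM (MEF 61.5 and MEF 61.3), 42.4 and 20.4 CPM with NSC, 33.9 and 17.5 CPM with B12 + MAT2Ai, and 30.9 and 15.7 CPM with B12 (log2 fold change 1.99 ± 0.07, edgeR adjusted p = 4.01e-07). Evpl (envoplakin) and Krt80 were higher by 2.03 ± 0.16 and 1.99 ± 0.13, Lad1 (ladinin) by 2.25 ± 0.59 and Cxadr, a junction receptor, by 1.13 ± 0.09. Rbm47, an RNA-binding gene, was lower (-1.33 ± 0.14). Endothelial markers had 1 of 7 higher (Tek) and skeletal muscle markers 0 of 4 called.

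Regulators that keep cells mesenchymal were not called lower. Of 26 mesenchymal genes, 1 was higher with SAM than with B12 (Twist1, 0.28 ± 0.07) and 0 were lower, with a median log2 value of 0.01. Zeb1 had 96.1 and 101 CPM with SAM (MEF 61.5 and MEF 61.3), 98.1 and 108 CPM with NSC, 93.5 and 88.9 CPM with B12 + MAT2Ai, and 105 and 93.4 CPM with B12. Its log2 value was -0.01 ± 0.08, and those of Snai1 (0.02 ± 0.06), Snai2 (0.03 ± 0.10), Zeb2 (-0.29 ± 0.10) and the neuronal cadherin gene Cdh2 (-0.15 ± 0.07) were not called either (edgeR adjusted p = 0.978, 0.896, 0.901, 0.123 and 0.281). That none of the 5 was called does not show that they were unchanged, and Zeb2 had the lowest value of the 5 (-0.29 ± 0.10). Bulk RNA does not give the level of these regulators in the cells that express epithelial genes. Their part in the epithelial difference was not tested.

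**Figure D4:**
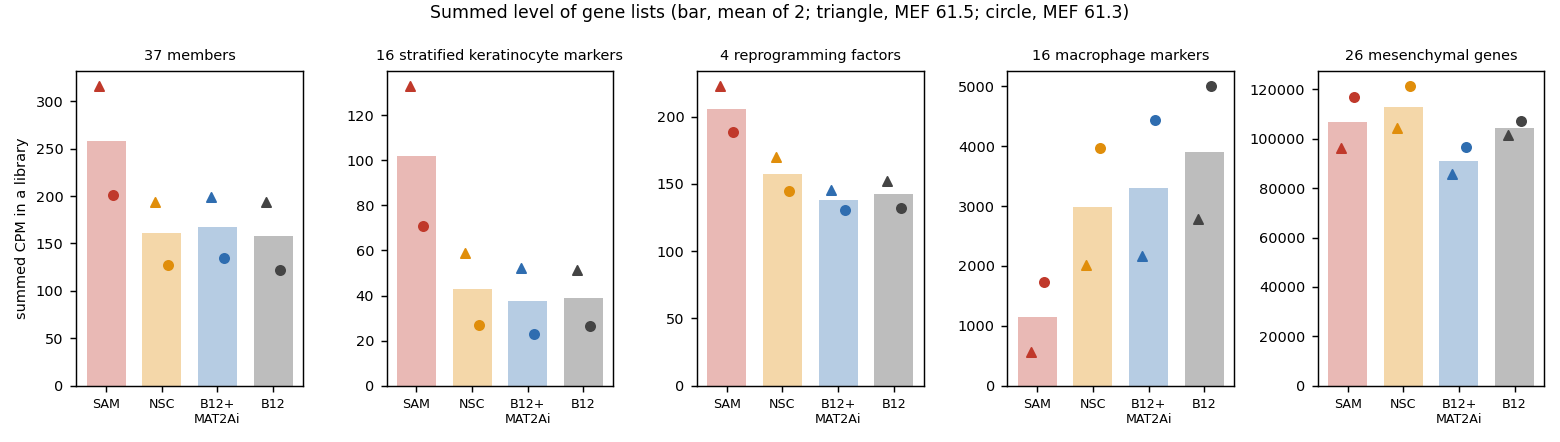
Summed CPM of 5 gene lists in each library by treatment, with the bar at the mean of 2 libraries (triangle, MEF 61.5; circle, MEF 61.3). The epithelial genes stood at 316 and 201 CPM with SAM against 194 and 122 CPM with B12, the macrophage markers at 561 and 1731 CPM with SAM against 2784 and 5012 CPM with B12, and the mesenchymal genes overlapped between SAM and B12.

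Zeb and Snai factors bind the E-box letters CACCTG, and promoters of the epithelial genes held them often. RefSeq promoters of 300 bases were matched by symbol for 21 of the 37 genes, as 25 promoters. CACCTG or CAGGTG was in 19 of the 25 (76%), against 20.2% of the 32851 promoters in the reference. Of the matched genes, 5 of 8 called in SAM against B12 had a match, 7 of 8 tested and not called, and 5 of 5 not tested. Median GC content was 60.7% in the 25 promoters and 52.7% in all, and its part in the share was not tested. The grainyhead motif AACCNGTT was in 1 of the 25, that of Rab25, against 2.09% of all promoters. The following 2 are promoters of called genes in which the E-box lies close to the start.
Dsp, chr13:38151044-38151343, plus strand: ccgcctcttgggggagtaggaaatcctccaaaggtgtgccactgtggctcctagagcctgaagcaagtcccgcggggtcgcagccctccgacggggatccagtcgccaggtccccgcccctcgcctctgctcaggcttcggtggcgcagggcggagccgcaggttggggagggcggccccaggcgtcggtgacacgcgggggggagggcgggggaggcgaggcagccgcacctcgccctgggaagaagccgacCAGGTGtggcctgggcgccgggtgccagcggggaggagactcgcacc
Aqp3, chr4:41098134-41098433, minus strand: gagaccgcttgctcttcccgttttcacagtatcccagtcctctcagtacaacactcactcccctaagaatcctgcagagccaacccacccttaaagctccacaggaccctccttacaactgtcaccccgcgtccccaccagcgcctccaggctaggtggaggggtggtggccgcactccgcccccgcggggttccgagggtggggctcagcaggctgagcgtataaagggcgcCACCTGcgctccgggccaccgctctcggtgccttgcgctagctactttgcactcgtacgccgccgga
The match of Dsp begins 3 bases after the start and that of Aqp3 17 bases before it. These are matches of letters and not measured binding.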

How the data were processed

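Libraries were made with a stranded mRNA kit. Per the labels and methods, reads were mapped by STAR 2.5.2b against mm10 (GRCm38) and assigned to Ensembl genes by featureCounts with reverse strandedness, technical replicates were added up, and the authors deposited these raw counts. The methods describe sequencing of these libraries as single-end but alignment and counting as paired-end, so which counting setting was used is uncertain. The treatment of reads that match several genes is not given in the sources used here.

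Symbols and exon lengths came from a GENCODE annotation of GRCm38, which matched 55141 of 55487 genes. Counts were fitted in R 4.3.3 with edgeR 4.0.16 (quasi-likelihood test, TMM scaling, filterByExpr with a minimum count of 10), with treatment and MEF as terms over all 8 libraries. P-values were adjusted by Benjamini-Hochberg over all 19392 genes tested, and called at 0.05. MEF was a block because same-numbered libraries come from 1 embryo; deviations of libraries of the same MEF correlated at 0.424 to 0.559. Within a MEF, differences are untested and were taken on log2 CPM after adding a prior count of 2. RPKM used union exon length. DESeq2 1.42.0 was an alternative. The fit was first tested on simulated counts. Alternatives were DESeq2 size factors, other filters on low counts, no block, only the 4 libraries compared, robust empirical Bayes and leaving out each library.

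Values per library were given for every epithelial gene called between treatments and for Cdh1, Epcam, Krt8, Krt18, Grhl2 and Esrp1. From other lists, cassette factors, Zeb1, Zeb2, Snai1, Snai2, Cdh2 and the called genes of largest change were named; Cldn4, Adgre1, Krt5, Col1a1 and Thy1 were chosen after their values were seen. The epithelial genes and lists were chosen with earlier results of these data known.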

Additional observations from a re-analysis of the deposited data

Results flagged for a closer look

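In 11 cases an epithelial gene moved by at least 0.25 on the log2 scale in opposite directions in the 2 embryos. None was called, each side is 1 library, and the difference between embryos was not tested. In SAM against B12 it was Krt18 (0.44 in MEF 61.5 and -0.30 in MEF 61.3, a gap of 0.74). In NSC against B12 they were Ehf (0.88 in MEF 61.5 and -0.41 in MEF 61.3, a gap of 1.28), Krt8 (0.35 in MEF 61.5 and -0.30 in MEF 61.3, a gap of 0.65), Tjp3 (-0.27 in MEF 61.5 and 0.54 in MEF 61.3, a gap of -0.82) and Pkp3 (-0.28 in MEF 61.5 and 0.35 in MEF 61.3, a gap of -0.62). In B12 + MAT2Ai against B12 they were Pkp3 (-0.57 in MEF 61.5 and 1.32 in MEF 61.3, a gap of -1.90), Grhl1 (0.46 in MEF 61.5 and -0.45 in MEF 61.3, a gap of 0.91) and Aqp3 (-0.29 in MEF 61.5 and 0.52 in MEF 61.3, a gap of -0.81). Against NSC, SAM gave Grhl1 (-0.30 in MEF 61.5 and 1.01 in MEF 61.3, a gap of -1.31), and against B12 + MAT2Ai it gave Grhl1 (-0.61 in MEF 61.5 and 0.58 in MEF 61.3, a gap of -1.19) and Tjp3 (-0.61 in MEF 61.5 and 0.26 in MEF 61.3, a gap of -0.87). Of these genes, Pkp3, Tjp3 and Grhl1 had at most 25 reads in any library.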

How the results depend on the processing

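With 2 embryos a treatment, a call rests on few values, and 10 of the 37 genes had too few reads to be tested. Counts of called genes in the settings below come without shares over all genes, so they show only how far the calls held. Without the replicate block for MEF, 0 of 27 epithelial genes passed in SAM against B12, SAM against NSC and SAM against B12 + MAT2Ai, because the difference between embryos then enters the error; 0 signs of called genes changed. Without a filter on low counts NSC against B12 called 2 genes, and the medians were 0.67 in SAM against B12 and 0.25 in B12 + MAT2Ai against B12, over 37 genes. With a filter at 1 CPM, over 18 genes, the medians were 1.505 in SAM against B12, 0.22 in NSC against B12, 1.10 in SAM against NSC and 1.28 in SAM against B12 + MAT2Ai. With only the 4 libraries compared they were 0.18 in NSC against B12, 0.14 in B12 + MAT2Ai against B12, 0.62 in SAM against NSC and 0.79 in SAM against B12 + MAT2Ai. The DESeq2 test gave a median of 0.0761 in NSC against B12. Leaving out 1 library at a time, 10 to 14 genes were called in SAM against B12, 11 to 13 in SAM against NSC, 10 to 14 in SAM against B12 + MAT2Ai and 13 to 17 between embryos; the medians were 0.0427 to 0.107 in NSC against B12 and 0.773 to 0.951 in SAM against B12 + MAT2Ai (0.82 without the SAM library of MEF 61.5, which also gave the lowest count, 10, in SAM against B12). Of 813 checks of a called gene's fold change under these settings 712 kept the call, 101 lost it and 0 changed sign. Spint2 (0.0357 to 0.0453 without 1 of 3 libraries, edgeR adjusted p) and St14 were called in some settings.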

Other observations

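The E-box letters CACCTG or CAGGTG differed in frequency between the gene lists, described here without a test. They were in 17 of 46 promoters (37%) of the further epithelial genes, 4 of 8 (50%) of the stratified keratinocyte genes and 6 of 11 (54.5%) of the pluripotency genes. They were in 2 of 7 (28.6%) of the skeletal muscle genes, 1 of 8 (12.5%) of the endothelial genes, 1 of 17 (5.88%) of the mesenchymal genes, 1 of 12 (8.33%) of the macrophage genes and 0 of 4 of the cassette factors. Some genes have more than 1 promoter in the reference, and such promoters can share sequence, as those of the epithelial gene Ocln do.

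L1td1, an RNA-binding gene of the early pluripotency network, had 15.0 and 6.11 CPM with SAM (MEF 61.5 and MEF 61.3) and was the 1 of 3 tested pluripotency genes called in SAM against B12 (3.31 ± 0.18 on the log2 scale, edgeR adjusted p = 4.11e-06). Of the 14 listed pluripotency genes, 9 had under 10 reads over all 8 libraries.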
